A study of Arabidopsis thaliana with 6 samples.

Results

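The genes that Arabidopsis thaliana carries in its plastid and mitochondrial genomes, and the introns inside them, were examined in RNA-seq libraries of a prmt5 mutant and the wild type. Members were all features whose locus identifier marks the plastid genome (ATCG) or the mitochondrial genome (ATMG). They comprised 279 of 33602 genes, 133 plastid and 146 mitochondrial, and 42 intron rows, 24 plastid and 18 mitochondrial, beside 128740 nuclear intron rows. In the plastid, 18 genes of the inverted repeat are listed at both copies, which leaves 115 distinct plastid genes.

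The study compared 3 libraries of a prmt5 mutant with 3 libraries of wild type Col (WT), both in the Col-0 ecotype. The labels name no mutant allele, and every sample title carries the label Expt_B and the word control. Whole plants were harvested after 9 days of growth in continuous white light at 22 °C, on medium with 0.8% agarose, following 4 days at 4 °C in darkness, and each sample is described as a pool of tissues. Libraries were made from polyadenylated RNA purified out of 3 μg of total RNA, with random hexamers as primers. Nothing in the labels says whether libraries came from separate cultures, so p-values measure the spread between these samples, which may be technical.

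PRMT5 adds methyl groups to arginines of other proteins, among them Sm proteins of the spliceosome, the machine that removes introns from nuclear transcripts. Plastid and mitochondrial introns are of another kind. They are group II introns, ribozyme-like elements removed with the help of imported RNA-binding proteins, except for the plastid trnL intron, which belongs to group I. A poly(A) tail, which stabilizes most nuclear messenger RNA, is an added tag that leads to decay in plant organelles. Poly(A) selection therefore captures a small and not necessarily typical part of organelle RNA, and the values below are levels within that part.

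The intron starts show the difference in kind. The lines that follow give the 8 last exon bases and the 12 first intron bases of the 12 distinct plastid introns that had enough counts for a test, of the untested group I intron of trnL, and, for contrast, of an intron of the nuclear gene CCD1. Sequences were read from the RefSeq assembly TAIR10.1 in the direction of the gene, and capitals mark the first 5 intron bases.
atpF (minus strand, Pt:12642-12661): gggagtgtGTGTGagttgtt
rpoC1 (minus strand, Pt:22641-22660): actgcgatGTGTGatttgat
clpP, intron row I001 (minus strand, Pt:70641-70660): ctcacgctTGGCGccaatga
clpP, intron row I002 (minus strand, Pt:71800-71819): gacatataGTGCGacttgtc
petB (plus strand, Pt:74839-74858): atatgagtGTGTGacttgtt
petD (plus strand, Pt:76481-76500): atgggagtGTGTGacttgaa
rpl16 (minus strand, Pt:82632-82651): tgcttagtGTGTGactcgtt
rpl2 (minus strand, Pt:85442-85461): tacctttgAGTGCggtttga
ndhB (minus strand, Pt:96376-96395): acgaaggaGTGCGgttcgtt
rps12 (minus strand, Pt:98550-98569): gcgttctaGTGCGttgtaga
trnI (plus strand, Pt:102830-102849): cctgataaTTGCGtcgttgt
trnA (plus strand, Pt:103695-103714): tcttgcaaTTGGGtcgttgc
trnL (plus strand, Pt:46921-46940): acggacttAATTGgattgag
CCD1 (plus strand, chr3:23453148-23453167): ttcttcccGTGAAattctct

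Of the 19 distinct plastid introns, 13 began with GTGNG, read on the gene's strand at the first intron base, against 8.15% of 110931 annotated nuclear junctions. The last 2 intron bases were AC or AT in 14 of the 19 and AG in 0, whereas 99.6% of the nuclear junctions ended in AG. The CCD1 intron was picked, after values were seen, as the raised nuclear intron with the smallest p in a gene without overlap. Its counts were 11.4, 12.6 and 12.9% of the gene count in the prmt5 libraries, against 0.674, 0.719 and 0.621% in the WT libraries (log2 change 4.20, SE 0.12, edgeR adjusted p 1.1e-27). Mitochondrial introns are not printed, since the deposited coordinates follow another mitochondrial assembly than the reference used here.

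Total gene counts were 51446743, 41465842 and 67300273 in the prmt5 libraries and 69699931, 38564256 and 75461631 in the WT libraries. PRMT5 itself, which overlaps AT4G31115, had 28.9 to 34.7 CPM (the count scaled by library size) in prmt5 and 28.7 to 31.1 CPM in WT, so its level did not separate the labelled genotypes. Counts in 1 of its introns were at 4.36 to 4.99% of the gene count in prmt5 and 0.200 to 0.445% in WT. That intron was picked among those of the gene by its own small p (edgeR adjusted p 5.4e-13), so it is no separate check of the genotype. Of all nuclear introns tested, 21.7% were raised. Libraries of one genotype differed by more than sampling noise in every pair. All 15 tissue markers examined had counts. The 4 leaf mesophyll markers summed to 18807 to 21215 CPM in prmt5 and 22284 to 27021 CPM in WT, and the 3 root epidermis and root hair markers to 80.2 to 94.1 CPM in prmt5 and 69.2 to 74.6 CPM in WT. The sums did not overlap for either list. Of the mesophyll markers, RBCS1A was not called (log2 change -0.07, edgeR adjusted p 0.66). LHCB1.1, LHCB2.1 and CAB3 were called lower (log2 changes -0.87, -0.88 and -0.61, edgeR adjusted p 0.0032, 0.0023 and 0.049). Of the root epidermis and root hair markers, GL2, which overlaps AT1G79850, was called higher (log2 change 0.23, edgeR adjusted p 0.042), and COBL9 and WER were not called. The part of tissue markers in the organelle results was not tested. Root endodermis (60.03 to 66.4 CPM in prmt5 and 63.4 to 72.4 CPM in WT), root vasculature (61.4 to 72.3 CPM in prmt5 and 61.7 to 73.4 CPM in WT) and guard cell markers (41.7 to 45.2 CPM in prmt5 and 35.8 to 44.3 CPM in WT) overlapped. Members of a list differed in sign. In the endodermis SCR was called lower (log2 change -0.30, edgeR adjusted p 0.0027), and CASP1 was not called (0.18). Among guard cell markers KAT1 was called higher (log2 change 0.33, edgeR adjusted p 0.0047), and FAMA was not called (-0.16). The flower and seed markers were near 0 but did not overlap either, at 0.144 to 0.261 CPM in prmt5 and 0.422 to 0.993 CPM in WT; of these, the seed storage protein gene CRA1 was called lower (adjusted p 0.0027).

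Plastid genes took a similar share of the counts in both genotypes, and so did mitochondrial genes. The plastid share was 0.460, 0.278 and 0.456% of gene counts in prmt5 and 0.457, 0.452 and 0.332% in WT, which is 0.398% ± 0.104 and 0.413% ± 0.0708 (SD, n = 3 each; two-sided exact permutation test, p = 0.9, where the smallest possible p is 0.1). One library of each genotype, prmt5 replicate 2 and WT replicate 3, lay below the rest of its group, and the groups overlapped. The mitochondrial share was 0.0200, 0.0167 and 0.0210% in prmt5 and 0.0184, 0.0208 and 0.0148% in WT (exact permutation p = 0.6), with overlap again. In bulk samples, fewer organelles or cells of a type and less RNA in each cannot be told apart.

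**Figure D1:**
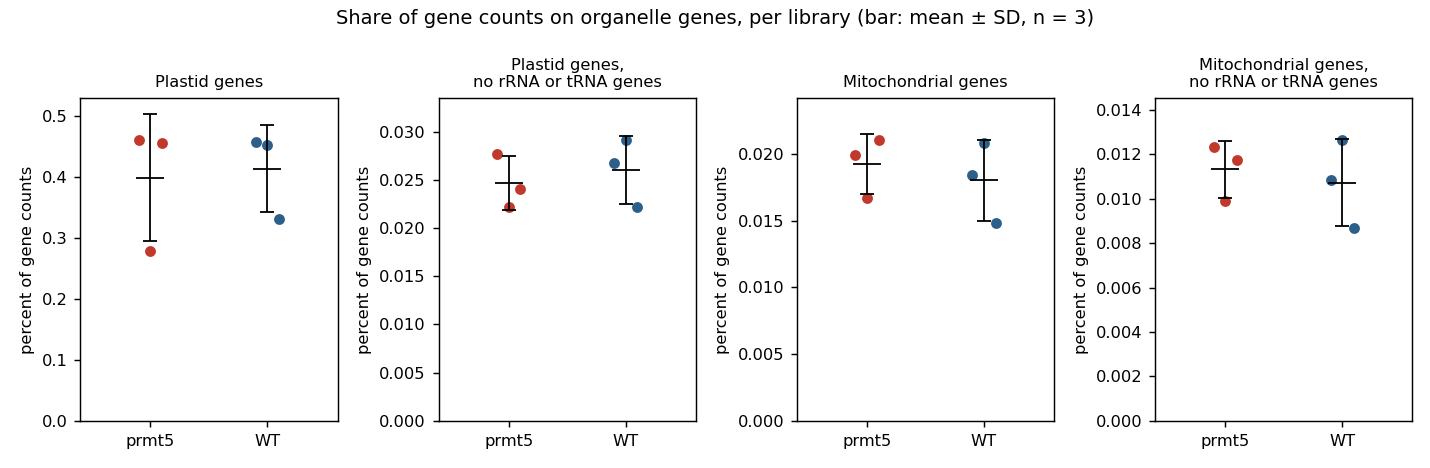
Percent of all gene counts on plastid and mitochondrial genes in each library (points), with and without ribosomal and transfer RNA genes, for prmt5 and WT (black bars: mean ± SD, n = 3). Only ribosomal and transfer RNA genes with a matched name were left out, so ATMG00020 remains. The groups overlap in all 4 panels, and prmt5 replicate 2 has the lowest plastid share, 0.278%.

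Ribosomal RNA made up most of the plastid counts, 93.4, 90.9 and 93.9% in prmt5 and 93.5, 92.9 and 92.6% in WT. The largest single gene was rrn23S, the RNA of the large plastid ribosomal subunit, at 1389, 880 and 1483 CPM in prmt5 and 1516, 1378 and 1083 CPM in WT for one copy. Without ribosomal and transfer RNA genes the plastid share was 0.0277, 0.0222 and 0.0240% in prmt5 and 0.0268, 0.0291 and 0.0222% in WT (exact permutation p = 0.8). Reads of the repeat were counted at both copies, since the copies of the 12 repeat genes with at least 100 counts differed by at most 0.630% in their totals. The plastid share therefore holds these reads at each copy. With 1 copy it was 0.242, 0.148 and 0.239% in prmt5 and 0.240, 0.239 and 0.175% in WT.

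In the mitochondrion, the 2 ribosomal RNA genes with a matched name held 38.2, 40.8 and 44.3% of the counts in prmt5 and 41.2, 39.1 and 41.1% in WT. rrn18, the RNA of the small mitochondrial ribosomal subunit, led with 72.3, 67.0 and 90.3 CPM in prmt5 and 78.5, 79.0 and 62.5 CPM in WT. ATMG00020 matched no named gene of the reference and is therefore not in that ribosomal RNA share. Together with ATMG00020, rrn18 held 69.7 to 77.8% of the mitochondrial counts of every library.

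Of 102 plastid genes tested (90 distinct), 0 rose and 2 fell, and these 2 are the copies of a single gene, rps12. Over all 22509 genes tested, 33.3% passed the threshold, 17.9% as higher and 15.4% as lower in prmt5. The median log2 change of the plastid genes was -0.05, beside 0.01 for all genes, with a range from -0.79 to 0.59. At an unadjusted p under 0.05, 4 plastid genes passed (rps12 at both copies, psaJ and petA), and DESeq2 and limma also called 0 as higher and 2 as lower. The count was 0 without prmt5 replicate 3, 4 lower genes without WT replicate 3 (psbC and psbD added), and 1 higher gene (ndhF) and 0 lower genes without WT replicate 1. A further alternative, chosen after the data were seen, blocked the libraries by the numbers in the sample descriptions (prmt5 9, 11 and 12 with WT 1, 3 and 4), which the labels do not say are pairs. It called 0 plastid genes higher and 9 lower, beside 21.1% higher and 19.4% lower over all genes in that fit. The genes added were psbA, psbD, rbcL, psaJ, rpoB and both copies of rrn16S. The median SE was 0.23 for plastid genes and 0.09 for all genes, and it was wide also for genes with many counts, such as rrn23S (SE 0.21 on a mean of 74435 counts for 1 copy). In 69 of the 102 the 95% interval of the change lay within 2-fold in either direction. The other 31 plastid genes had too few counts for the test.

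The part of rps12 that lies in the repeat (ATCG00905, Pt:97999-98793, minus strand) codes for the end of a protein of the small plastid ribosomal subunit, whose transcript is joined from separate RNAs. It had 1.04, 0.959 and 0.869 CPM in prmt5, against 1.64, 1.61 and 1.48 CPM in WT. The groups did not overlap, and the log2 change was -0.72 (SE 0.21, edgeR adjusted p 0.021). These values rest on 56, 40 and 60 counts in prmt5 and 109, 63 and 107 counts in WT. The call was lost without WT replicate 1 (adjusted p 0.062), without prmt5 replicate 3 (adjusted p 0.070) and with counts scaled to the plastid total (log2 change -0.58, adjusted p 0.11). Over the alternatives the adjusted p ran from 0.018 to 0.11. The 5′ part of rps12 (ATCG00065), on 2 to 15 counts per library, had a log2 change of -0.48 (SE 0.58, adjusted p 0.55).

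Genes of the photosynthetic complexes did not pass the test as reported, in either direction. psbA, which codes for the D1 reaction centre protein of photosystem II, had 29.1, 13.2 and 23.3 CPM in prmt5 and 30.1, 31.8 and 22.5 CPM in WT (log2 change -0.35, SE 0.32, adjusted p 0.46; with the block by description number -0.41, adjusted p 0.033). Its low value was in prmt5 replicate 2, the library with the low plastid share. Of the 15 psb genes tested, 12 had a negative log2 change, with a median of -0.17 and a range from -0.49 to 0.10. Summed over the class, the psb genes were at 57.7, 40.7 and 52.3 CPM in prmt5 and 68.9, 66.3 and 48.1 CPM in WT. The mesophyll marker sum given above was also lower in prmt5, though its member RBCS1A was not called. The part of that sum in the psb values was not tested.

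Of photosystem I, 4 psa genes were tested and had a median log2 change of -0.16. psaJ, a small subunit, had the highest mean count per kilobase of the plastid protein genes (26.6 CPM per kb). It was at 3.88, 2.59 and 2.55 CPM in prmt5 and 4.10, 4.90 and 3.56 CPM in WT (log2 change -0.47, SE 0.19, adjusted p 0.082). psaB, a core reaction centre protein and the psa gene with most counts, had 9.24, 8.53 and 11.03 CPM in prmt5 and 9.86, 9.34 and 6.43 CPM in WT (log2 change 0.18, SE 0.16, adjusted p 0.44). Values of both genes overlapped between genotypes. psaJ passed the threshold in 2 alternatives, without prmt5 replicate 1 (log2 change -0.69, adjusted p 0.017) and with the block by description number (-0.49, adjusted p 0.017).

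rbcL, the large subunit of the carbon-fixing enzyme Rubisco, had 22.9, 16.3 and 23.0 CPM in prmt5 and 31.1, 25.4 and 19.0 CPM in WT (log2 change -0.27, SE 0.22, adjusted p 0.39; with the block by description number -0.27, adjusted p 0.0089). Among the 6 pet genes, of the cytochrome b6f complex, petA (cytochrome f) did not overlap between genotypes, at 2.00, 1.99 and 1.93 CPM in prmt5 and 2.56, 2.86 and 2.39 CPM in WT. Its adjusted p was 0.077 (log2 change -0.40, SE 0.16). Over all genes tested, groups failed to overlap in 24.9% with prmt5 higher and 22.5% with prmt5 lower, against 4 and 4 of the 102 plastid genes, counting both copies of the 5S ribosomal RNA gene and of rps12. The 6 atp genes, of the ATP synthase, had a median log2 change of -0.13. atpB, its beta subunit, was at 18.9, 17.3 and 16.5 CPM in prmt5 and 18.5, 19.5 and 17.8 CPM in WT (log2 change -0.08, SE 0.08), one of the tighter estimates among these genes, and atpE, the epsilon subunit, had a log2 change of -0.18 (SE 0.15). The 11 ndh genes, of the chloroplast NADH dehydrogenase-like complex, had a median log2 change of -0.08 and a range from -0.38 to 0.59.

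Plastid genes are read by 2 kinds of RNA polymerase, a bacterial type one whose core subunits are the rpo genes, and phage type enzymes imported from the cytosol. rpoB, the beta subunit and the rpo gene with most counts, had 18.0, 16.8 and 11.9 CPM in prmt5 and 16.4, 21.2 and 17.6 CPM in WT (log2 change -0.25, SE 0.17, adjusted p 0.30; with the block by description number -0.26, adjusted p 0.027). The log2 changes of rpoA, rpoC1 and rpoC2 were 0.16 (SE 0.22), -0.10 (SE 0.15) and -0.02 (SE 0.14). Of 5 genes known to depend on the imported enzymes (accD, rpoB, rpoC1, rpoC2 and ycf2), 0 passed the edgeR threshold as reported and rpoB with the block by description number, with a median log2 change of -0.02. Of the 26 psa, psb, pet and rbcL genes tested, read mainly by the bacterial type enzyme, 0 passed as reported, with a median of -0.08; psaJ and petA had an unadjusted p under 0.05, and psbA, psbD, rbcL and psaJ passed with that block.

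The other plastid genes with set roles did not pass the threshold. accD, a subunit of acetyl-CoA carboxylase, had 0.192 to 0.355 CPM in prmt5 and 0.211 to 0.306 CPM in WT (log2 change 0.26, SE 0.40). matK, a maturase encoded inside the trnK intron, had 1.25 to 1.55 CPM in prmt5 and 1.24 to 1.43 CPM in WT (log2 change 0.02, SE 0.20). For clpP, a protease subunit, the log2 change was -0.15 (SE 0.16). The large open reading frames ycf2 and ycf1 had log2 changes of 0.16 (SE 0.23) and, for the 2 ycf1 entries, 0.04 (SE 0.36) and -0.18 (SE 0.23). cemA, an envelope membrane protein, was at -0.30 (SE 0.22), and the ribosomal protein gene rpl32 at -0.14 (SE 0.25). All of these intervals include 0.

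**Figure D2:**
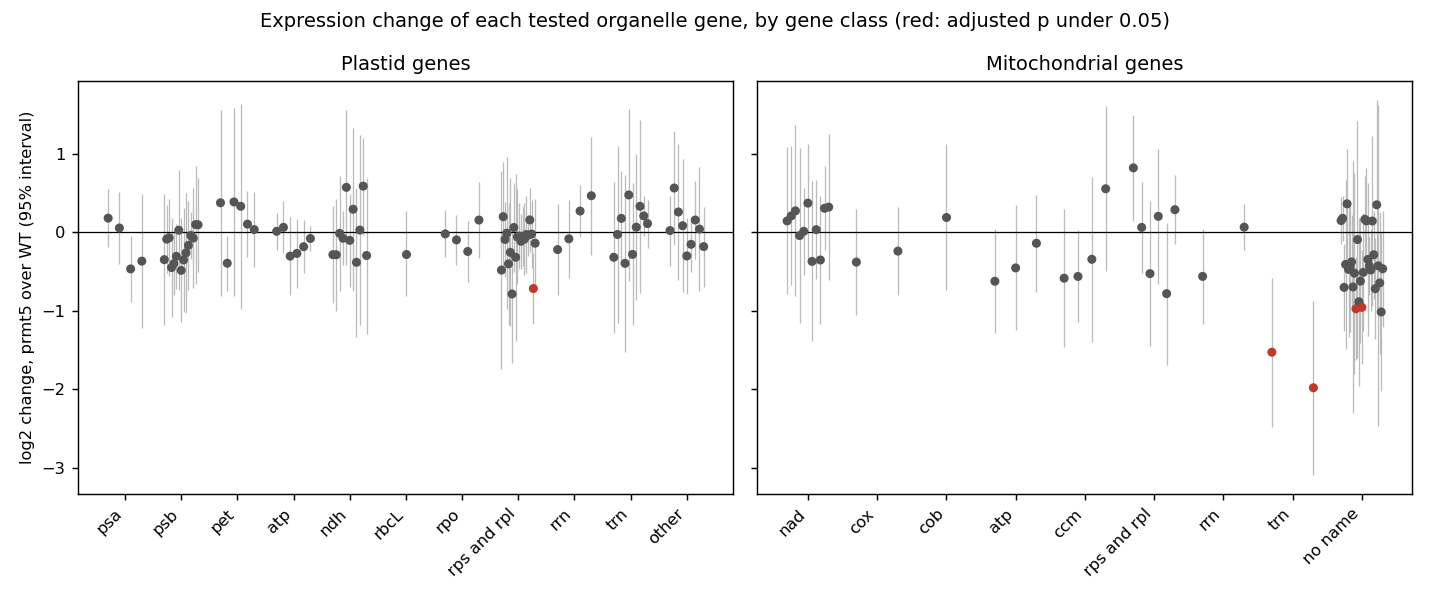
Log2 change in prmt5 over WT (vertical axis) of each tested plastid (left) and mitochondrial gene (right) by gene class, with 95% intervals, 1 copy of the plastid repeat. Most points lie within 1 of 0; the red points, adjusted p under 0.05, are rps12 in the plastid and, in the mitochondrion, both trnS(GCT) genes and 2 genes without a matched name.

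Mitochondrial genes were counted at lower levels and with wider errors. Of 60 tested among 146, 0 rose and 4 fell, against 17.9% higher and 15.4% lower over all genes, and 9 had an unadjusted p under 0.05. DESeq2 called 0 as higher and 3 as lower, and limma 1 as higher (rpl16) and 4 as lower. The count of calls was 1 without prmt5 replicate 3 and 2 without prmt5 replicate 2, all lower. Without WT replicate 1 there were 1 higher (rpl16, log2 change 1.07) and 2 lower genes, and without WT replicate 2 likewise 1 higher (ATMG00020, log2 change 0.28) and 2 lower. The median log2 change was -0.36 and the median SE 0.36, and 10 genes had no count. Of the 60, 38 had a negative log2 change. Groups did not overlap in 2 of the 60 with prmt5 higher and in 11 with prmt5 lower, beside 24.9% and 22.5% over all genes tested. The median of the 29 tested genes without a matched name was -0.44.

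Both genes for the serine transfer RNA trnS(GCT) fell. ATMG00780 had 0.0746, 0.0959 and 0.0724 CPM in prmt5 and 0.332, 0.459 and 0.207 CPM in WT (log2 change -1.98, SE 0.50, adjusted p 0.012). ATMG00330 had 0.131, 0.0959 and 0.130 CPM in prmt5 and 0.317, 0.485 and 0.290 CPM in WT (log2 change -1.53, SE 0.43, adjusted p 0.019). The groups did not overlap for either gene, but the counts were 4, 4 and 5 in prmt5 against 22, 18 and 15 in WT for ATMG00780, and 7, 4 and 9 in prmt5 against 21, 19 and 21 in WT for ATMG00330. The 2 genes of 88 bases are identical in the reference, and all of their 50-base stretches are also in the nuclear chromosomes, so the source of these reads is uncertain. The 2 calls may share reads and are not 2 separate results. ATMG00780 passed in all alternatives, and ATMG00330 lost its call without WT replicate 2 or any 1 prmt5 replicate (adjusted p 0.052 to 0.063).

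The other genes that fell matched no named gene. ATMG00590 had 1.14, 0.815 and 0.536 CPM in prmt5 and 1.75, 1.89 and 1.26 CPM in WT (log2 change -0.98, SE 0.30, adjusted p 0.027). The nuclear gene AT2G07718, of the same length, had exactly its counts in every library, 61, 34 and 37 in prmt5 and 116, 74 and 91 in WT, so the same reads were counted at both places. Its call was lost without WT replicate 1 (adjusted p 0.068), WT replicate 2 (0.055), prmt5 replicate 2 (0.067) or prmt5 replicate 3 (0.091). ATMG00690 had 0.411, 0.336 and 0.246 CPM in prmt5 and 0.648, 0.510 and 0.731 CPM in WT (log2 change -0.96, SE 0.33, adjusted p 0.045), and lost its call under 10 of 15 alternatives, among them without WT replicates 1 or 3 or any 1 prmt5 replicate (adjusted p 0.052 to 0.16).

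The shared sequence is general. Of the 50-base stretches of the mitochondrial reference genome, 70.6% are also in the nuclear chromosomes, against 2.43% for the plastid genome. Of 7 pairs of a nuclear and a mitochondrial gene of equal length, 3 agreed within 10% in their counts over all libraries. Beside ATMG00590 these were rps12, with 696 counts against 690 at AT2G07675, and atp8, with 352 against 349 at AT2G07707. The other 4 pairs differed, with 205 counts for ATMG01010 against 582 at AT2G07751, 101 for ATMG00370 against 154 at AT2G07739, and 66 for ATMG00530 against 114 at AT2G07663 and 9 at AT2G07669.

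Respiratory chain genes of the mitochondrion did not pass the test. The 11 nad genes tested, of NADH dehydrogenase (complex I), had a median log2 change of 0.14, and nad3, at 2.11, 1.77 and 1.78 CPM in prmt5 and 2.11, 1.28 and 1.17 CPM in WT, had the most counts of that class (log2 change 0.30, SE 0.24). cob, cytochrome b of complex III, was at 0.243, 0.216 and 0.319 CPM in prmt5 and 0.151, 0.332 and 0.235 CPM in WT (log2 change 0.19, SE 0.42). cox2, a cytochrome c oxidase subunit, had a log2 change of -0.38 (SE 0.31), and the 2 cox genes tested were both negative. These groups overlapped.

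The 3 atp genes tested, of the mitochondrial ATP synthase, were all negative, with atp1 at 2.74, 2.23 and 2.51 CPM in prmt5 and 3.80, 2.88 and 1.61 CPM in WT (log2 change -0.14, SE 0.28) and atp8 at -0.63 (SE 0.30, adjusted p 0.13). ccmFC, which acts in cytochrome c maturation, had 1.49, 0.959 and 1.101 CPM in prmt5 and 2.05, 2.07 and 1.2 CPM in WT (log2 change -0.56, SE 0.27, adjusted p 0.13). The ribosomal protein gene rps12 of the mitochondrion had 2.16, 2.04 and 2.48 CPM in prmt5 and 2.23, 1.84 and 1.43 CPM in WT (log2 change 0.29, SE 0.20), and nad4L had a log2 change of -0.35 (SE 0.37).

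Introns of organelle genes did not show the rise found in many nuclear introns. Gene counts leave out intron reads, so the intron count as a percent of the gene count can pass 100. The test took the gene count as offset, so that its log2 change is that of the ratio of intron to gene counts. It covered introns whose mean count reached 5 and whose gene had a mean of 50 or more. Of the 17 plastid introns tested (12 distinct), 0 were raised and 0 lowered, with 0 at an unadjusted p under 0.05 and also 0 calls in DESeq2. Of the 9 mitochondrial introns tested, 0 were raised and 2 lowered, with 5 at an unadjusted p under 0.05 and the same 2 calls in DESeq2. Over all 53291 introns tested, 22.2% passed, 21.6% as raised and 0.518% as lowered in prmt5, and among the 53265 nuclear ones 21.7% were raised and 0.514% lowered. Among the 14401 nuclear introns with a mean count of at least 25.3, the lowest of a tested organelle intron, 34.2% were raised.

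The median log2 change was 0.04 for plastid introns, -0.38 for mitochondrial introns and 0.37 for nuclear introns. Precision was not lower for organelle introns, with a median SE of 0.20 in the plastid and 0.19 in the mitochondrion, against 0.41 for nuclear introns and 0.23 for those with a mean count of at least 25.3. The upper bound of the 95% interval was under the median of all introns in 7 of 17 plastid introns (4 of 12 distinct) and 7 of 9 mitochondrial introns, beside 4699 of all 53291 introns and 2643 of the 14401 nuclear introns with that mean count. It was under 1.58, the median change of the raised nuclear introns (which are chosen by their own test), in all 26, beside 35909 of 53265 nuclear introns and 11662 of those 14401. When the median change of all introns was taken as 0, 7 of 17 plastid introns (trnI, trnA and rpl2 at both copies, and rpl16) and 7 of 9 mitochondrial introns were lowered and 0 raised, against 3.53% lowered and 12.4% raised over all introns.

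**Figure D3:**
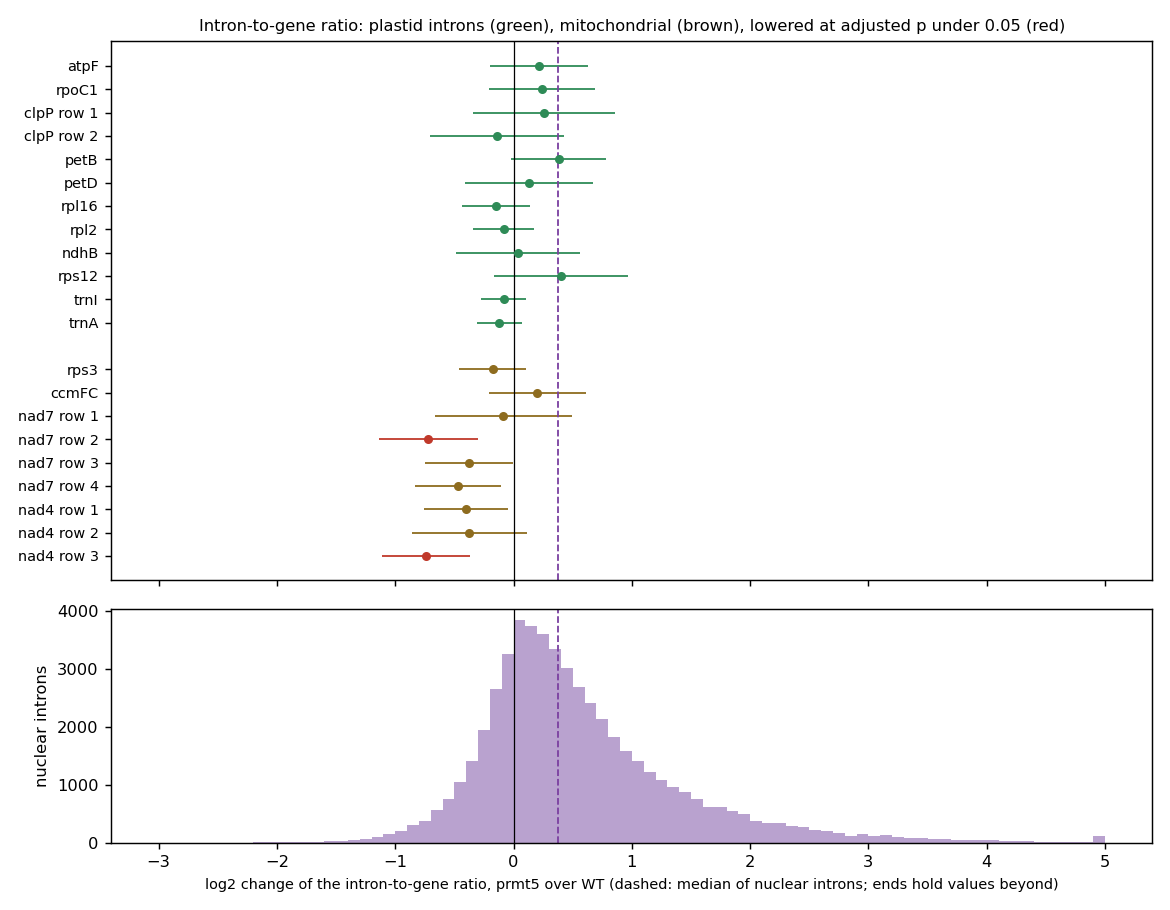
Change in the ratio of intron to gene counts (log2, prmt5 over WT) with 95% intervals for the 12 distinct plastid and 9 mitochondrial introns tested (upper panel) and the count of nuclear introns per change (lower panel; dashed line, their median of 0.37). Plastid intervals all include 0, and 2 mitochondrial introns, nad7 row I002 and nad4 row I003, are lowered at adjusted p under 0.05.

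The intronic share of each library, its intron counts in percent of the sum of intron and exon bin counts, gave the same contrast without a test per intron. In the organelles the exon bins held about the counts of the genes with introns, not those of all genes. The organelle values are thus not shares of all plastid or mitochondrial counts. In the plastid the intronic share was 59.4, 59.8 and 62.3% in prmt5 and 62.1, 60.6 and 60.4% in WT (exact permutation p = 0.6). Without transfer and ribosomal RNA genes it was 25.8, 28.4 and 27.5% in prmt5 and 26.6, 28.8 and 26.8% in WT (exact permutation p = 0.9). In the mitochondrion it was 80.8, 82.2 and 79.3% in prmt5 and 79.4, 84.4 and 83.7% in WT (exact permutation p = 0.3). The groups overlapped in both.

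The nuclear intronic share was 4.06, 3.91 and 3.72% in prmt5 and 2.89, 3.20 and 2.94% in WT, with no overlap (exact permutation p = 0.1, the smallest possible). The plastid share with transfer RNA genes included was 14.6, 15.3 and 16.7 times the nuclear share of the same library in prmt5 and 21.5, 19.0 and 20.5 times in WT. The mitochondrial share was 19.9, 21.0 and 21.3 times as large in prmt5 and 27.5, 26.4 and 28.5 times in WT. The divisor alone already separates the genotypes, so the ratios are no separate test. Their size also depends on the measure. As a percent of the gene counts of genes with introns, plastid introns had a mean of 160% in prmt5 and 164% in WT. Nuclear introns had 5.67% in prmt5 and 4.35% in WT on that measure.

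**Figure D4:**
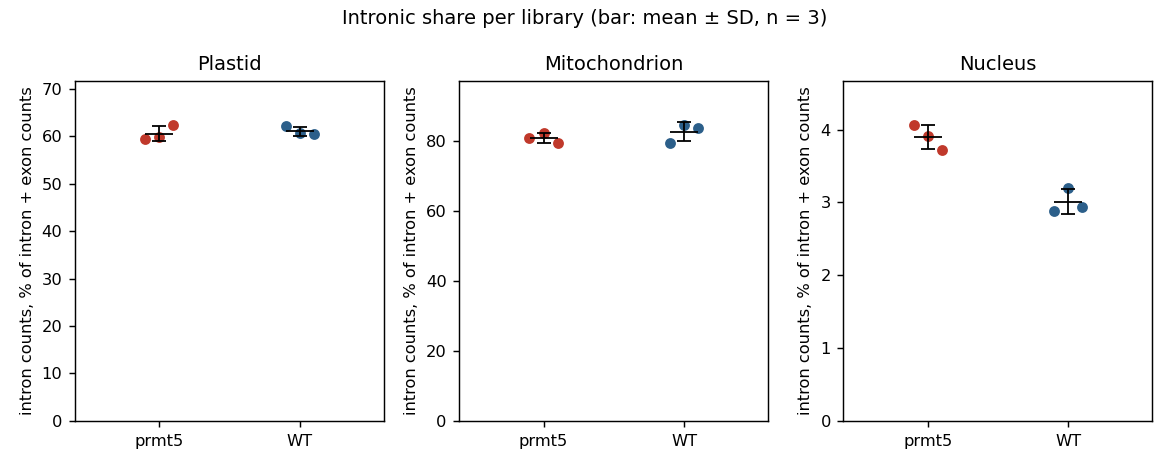
Intronic share (percent of intron and exon bin counts that lie in introns) of each library (points) for plastid, mitochondrial and nuclear genes in prmt5 and WT (black bars: mean ± SD, n = 3). Organelle exon bins held about the counts of the genes with introns, not those of all genes. The genotypes overlap in the plastid and the mitochondrion and are apart in the nucleus, at 3.72 to 4.06% in prmt5 and 2.89 to 3.20% in WT; the vertical axes differ.

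The transfer RNA genes trnI and trnA, which lie between the ribosomal RNA genes of the repeat, had the most intron counts of the plastid. The trnI intron was at 347, 319 and 315% of its gene count in prmt5 and 368, 324 and 347% in WT (log2 change -0.08, SE 0.10), and the trnA intron at 375, 333 and 340% in prmt5 and 379, 373 and 386% in WT (log2 change -0.12, SE 0.09). Their 95% intervals, from -0.28 to 0.11 and from -0.31 to 0.07, were the narrowest of the plastid introns, and both end under the nuclear median.

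Introns of ribosomal protein genes did not pass the threshold. The rpl2 intron stood at 31.2, 40.2 and 34.4% of the gene count in prmt5 and 34.9, 38.3 and 38.3% in WT (log2 change -0.08, SE 0.13). The rpl16 intron stood at 112, 93.3 and 94.4% in prmt5 and 97.6, 131 and 106% in WT (log2 change -0.15, SE 0.14). The rps12 intron stood at 48.2, 80.0 and 40.0% in prmt5 and 36.7, 31.7 and 51.4% in WT, where the wide overlap matched an SE of 0.28 on a log2 change of 0.40 (adjusted p 0.36). The rps12 gene count, the divisor of this ratio, was lower in prmt5, as given above.

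For genes of the photosynthetic complexes, the petB intron was at 54.9, 70.7 and 82.1% in prmt5 and 57.5, 46.5 and 53.0% in WT (log2 change 0.38, SE 0.20, adjusted p 0.19). The petD intron was at 46.9, 31.2 and 34.8% in prmt5 and 32.8, 29.7 and 40.5% in WT (log2 change 0.13, SE 0.27), and petD and petB are cotranscribed genes of the cytochrome b6f complex. The atpF intron, in a gene of the ATP synthase, was at 45.8, 35.2 and 44.1% in prmt5 and 35.7, 30.5 and 40.6% in WT (log2 change 0.22, SE 0.20), and the ndhB intron at 18.0, 29.7 and 37.0% in prmt5 and 25.7, 36.0 and 24.1% in WT (log2 change 0.04, SE 0.26). In each of them the groups overlapped.

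The rpoC1 intron was at 13.2, 19.0 and 15.6% in prmt5 and 12.9, 13.3 and 14.1% in WT (log2 change 0.24, SE 0.22). For clpP, intron row I001 was at 28.7, 18.7 and 18.3% in prmt5 and 21.4, 20.6 and 13.9% in WT (log2 change 0.26, SE 0.30), and row I002 at 28.7, 20.9 and 19.1% in prmt5 and 31.2, 28.9 and 17.0% in WT (log2 change -0.14, SE 0.28). The 2 clpP introns thus differed in sign, each within its error.

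In the mitochondrion, the lowered introns were in nad4 and nad7, both subunits of complex I. Intron row I003 of nad4 was at 166, 129 and 134% of the gene count in prmt5 and 174, 220 and 342% in WT, with no overlap (log2 change -0.74, SE 0.19, adjusted p 0.0023). Its call was lost without WT replicate 3, the highest library (log2 change -0.42, adjusted p 0.12). Intron row I002 of nad7 was at 102, 121 and 71.2% in prmt5 and 137, 205 and 141% in WT, also without overlap (log2 change -0.72, SE 0.21, adjusted p 0.0082), and lost its call without WT replicate 2 (adjusted p 0.062) or prmt5 replicate 3 (adjusted p 0.12). The count of lowered organelle introns was 1 without WT replicate 3 or prmt5 replicate 3 and 3 without WT replicate 1 or prmt5 replicate 1. Without WT replicate 2 it was 1, and the cox2 intron was raised (log2 change 0.47, adjusted p 0.023); with all libraries its gene was under the count minimum, and with the lower minimum it did not pass (log2 change 0.16, adjusted p 0.66).

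The other introns of these genes were also negative without passing the threshold. In nad7, row I004 was at 221, 167 and 164% in prmt5 and 178, 285 and 315% in WT (log2 change -0.47, SE 0.18, adjusted p 0.053; it passed in 6 alternatives), row I003 had a log2 change of -0.38 (SE 0.18) and row I001 of -0.09 (SE 0.29). In nad4, rows I001 and I002 had log2 changes of -0.40 (SE 0.18) and -0.37 (SE 0.24). Introns of one gene share the gene count as divisor, so these 7 values are not independent. Elsewhere, the intron of rps3 was at 484, 550 and 375% in prmt5 and 435, 679 and 483% in WT (log2 change -0.18, SE 0.14), and that of ccmFC at 77.5, 122 and 80.3% in prmt5 and 70.6, 71.6 and 93.1% in WT (log2 change 0.20, SE 0.20).

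Relative to their genes, organelle introns were covered more densely than nuclear introns. Per base, the median tested intron had 33.2% of the density of its gene in the plastid and 139% in the mitochondrion, against 8.36% in the nucleus. For nuclear introns with a mean count of at least 25.3 it was 14.2%. The 7 untested plastid introns and 9 untested mitochondrial introns lie in genes with a mean under 50 counts or had too few counts themselves. Some of these had many intron counts, such as trnV with 648, 331 and 570 in prmt5 and 828, 642 and 858 in WT, beside a mean of 10.5 counts for the gene, so that the ratio cannot be estimated well. Reads of a gene that overlaps an intron may have been counted for both, as for matK in trnK, ATMG00520 in nad1 and ATMG01330 in nad2. The trnL group I intron had 51, 16 and 33 counts in prmt5 and 30, 19 and 19 counts in WT, beside a mean of 9 for its gene.

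At the level of RNA rather than ratio, the introns of the plastid summed to 77.1, 71.1 and 79.8 CPM in prmt5 and 82.4, 83.4 and 71.0 CPM in WT, with 1 copy of the repeat. The genes that hold them summed to 51.0, 49.8 and 49.1 CPM in prmt5 and 50.9, 52.0 and 46.6 CPM in WT. Mitochondrial introns summed to 38.4, 31.3 and 31.8 CPM in prmt5 and 41.0, 46.9 and 34.2 CPM in WT. Organelle sums overlapped between genotypes, whereas nuclear introns summed to 50609, 50800 and 47162 CPM in prmt5 and 38298, 40110 and 39058 CPM in WT, without overlap.

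Spliced reads were a small part of the reads on organelle introns. Annotated plastid junctions had 227, 142 and 229 counts in prmt5 and 216, 163 and 248 counts in WT, which is 3.22, 2.71 and 2.33% of junction plus intron counts in prmt5 and 2.27, 2.98 and 2.79% in WT (exact permutation p = 0.9). In nuclear genes the same share was 86.1, 86.7 and 87.3% in prmt5 and 89.98, 88.8 and 89.8% in WT. These shares, and those per intron below, are not scaled for intron length, so they do not compare the extent of splicing between compartments. The trnI and trnA introns, which have no junction row, held 69.9, 73.4 and 77.4% of the plastid intron counts in prmt5 and 73.8, 66.6 and 70.4% in WT. Taken intron by intron over all libraries, the median share was 12.6% for the tested plastid introns (quartiles 1.54 and 25.9%), 0% for the mitochondrial and 90.3% for the nuclear ones. Of the 9 plastid junctions (7 distinct) whose mean count reached 5, 0 passed the edgeR test with the gene count as offset and 0 had an unadjusted p under 0.05, with 0 calls also without the offset. Over all 98932 junctions tested, 0.903% passed, 0.0526% as higher and 0.85% as lower in prmt5.

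The rpl2 junction had 62, 31 and 58 counts in prmt5 and 50, 37 and 54 counts in WT (log2 change 0.22, SE 0.19). The atpF junction had 13, 25 and 22 counts in prmt5 and 30, 12 and 24 counts in WT (log2 change -0.05, SE 0.31). Both overlapped. In rpoC1 the junction had 5, 3 and 4 counts in prmt5 and 11, 2 and 16 in WT (log2 change -0.96, SE 0.54), and in petD there were 11, 3 and 11 in prmt5 and 6, 3 and 4 in WT (log2 change 0.97, SE 0.53), too few to show a change of that size.

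No mitochondrial junction reached the count minimum. The annotated mitochondrial junctions summed to 19, 13 and 29 counts in prmt5 and 18, 9 and 12 counts in WT. As a share of junction plus intron counts this was 0.915, 0.986 and 1.303% in prmt5 and 0.657, 0.487 and 0.482% in WT, with no overlap (exact permutation p = 0.1, the smallest possible). Only 3 of the 29 junction rows on organelle chromosomes were not annotated, with 3 counts in all, whereas 40.6% of all junction rows were not annotated.

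Proteins that read, splice and degrade organelle RNA are encoded in the nucleus. Of 53 such genes in 5 lists, all tested, 18 rose, 5 fell and 30 did not pass, beside 17.9% higher and 15.4% lower over all genes tested. Whether this share differs from that of all genes was not tested. The median log2 change of the 53 was 0.12, beside 0.01 for all genes.

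Among the 9 genes for organelle RNA polymerases and sigma factors, 4 rose and 2 fell. SIG3, a sigma factor of the plastid polymerase, was at 154 ± 12.4 CPM in prmt5 and 56.5 ± 3.25 CPM in WT (SD, n = 3 each; log2 change 1.44, SE 0.08, adjusted p 5.1e-07). RPOTP, a phage type polymerase of the plastid, was at 97.9 ± 3.95 CPM in prmt5 and 52.3 ± 2.15 CPM in WT (log2 change 0.90, SE 0.06, adjusted p 3.2e-06). The sigma factor SIG5 fell, to 35.1 ± 4.19 CPM in prmt5 against 53.6 ± 4.89 CPM in WT (log2 change -0.62, SE 0.09), and SIG1 fell by 0.30 on the log2 scale (SE 0.09, adjusted p 0.030). The SIG1 call was lost without WT replicate 3 (adjusted p 0.10) or prmt5 replicates 1 (0.12) or 3 (0.11), and when each compartment was scaled to its own total (0.061).

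Of 12 proteins associated with the plastid polymerase, 5 rose and 1 fell, all by less than 2-fold, with PAP4 and PAP11 up by 0.40 each (SE 0.07 and 0.08) and PAP10 lower by a log2 change of -0.27 (SE 0.06, adjusted p 0.0066). PAP10 missed the threshold when each compartment was scaled to its own total (adjusted p 0.062). Of 11 plastid intron splicing factors, 3 rose and 1 fell. CAF1, which acts on several group II introns, was at 62.4 ± 3.18 CPM in prmt5 and 46.1 ± 2.72 CPM in WT (log2 change 0.44, SE 0.07, adjusted p 0.00063). The changes of WTF1 and THA8 were 0.25 (SE 0.07, adjusted p 0.014) and -0.19 (SE 0.07, adjusted p 0.048). WTF1 lost its call without prmt5 replicate 3 (adjusted p 0.062), and THA8, which overlaps AT3G27770, in 10 of 15 alternatives, among them without each WT replicate and without prmt5 replicates 1 or 2 (adjusted p 0.060 to 0.15).

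Of 14 mitochondrial intron splicing factors, 4 rose and 0 fell; at an unadjusted p under 0.05, 8 differed, 7 of them higher, beside 9871 of all 22509 genes. PMH2, a DEAD-box RNA helicase, was at 71.4 ± 0.811 CPM in prmt5 and 50.4 ± 3.57 CPM in WT (log2 change 0.50, SE 0.07, adjusted p 0.00023), and CFM9 rose by 0.54 (SE 0.10). Of 7 organelle ribonucleases and polynucleotide phosphorylases, 2 rose and 1 fell. The mitochondrial polynucleotide phosphorylase AT5G14580, an exonuclease that degrades polyadenylated RNA, was at 22.2 ± 1.84 CPM in prmt5 and 11.5 ± 1.48 CPM in WT (log2 change 0.96, SE 0.10, adjusted p 6.0e-05). RNJ, the plastid RNase J, was at 99.9 ± 5.42 CPM in prmt5 and 64.0 ± 6.14 CPM in WT (log2 change 0.64, SE 0.08). CSP41A, which overlaps AT3G63130, fell by 0.32 on the log2 scale (SE 0.09, adjusted p 0.020), a call lost without WT replicate 3 (adjusted p 0.087), prmt5 replicate 1 (0.075) or prmt5 replicate 3 (0.082).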

How the data were processed

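The deposited tables hold raw read counts per gene, exon bin, intron and junction for 6 libraries; per the submitters' processing notes, STAR and TAIR10 were used. The sources used here give neither the counting program nor its treatment of strand and of reads with several matches. Sample titles set the groups and replicate numbers. Counts carry counting and amplification error, since no molecular identifiers are described.

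Genes were tested in R 4.3.3 by the robust quasi-likelihood F test of edgeR 4.0.16 (TMM scaling, default filter on low counts, two-sided, Benjamini-Hochberg adjustment over all features tested, threshold 0.05). Intron and junction fits had the log of the gene count plus 0.5 as offset, with minimum mean counts of 5 for the feature and 50 for its gene. The SE is the absolute log2 change over the square root of F. CPM use TMM library sizes. Shares were compared by two-sided exact permutation tests. The fits were tested on simulated data. Alternatives used DESeq2 1.42.0, limma 3.58.1, other scalings, filters and offsets, a block by replicate number or by description number, and each library left out.

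Plastid coordinates equal those of the RefSeq plastid sequence (TAIR10.1). Mitochondrial names were taken where gene lengths (within 3 bases) and distances to neighbours (within 20 bases) were equal, for 48 of 146 genes. Genomes were compared by their stretches of 50 bases. Named were the genes with a tested intron, the 5 protein genes with most counts per kilobase and the gene with most counts of each class in each compartment, the called genes, 11 plastid genes of known role, and up to 2 genes per direction of each nuclear list. Members and lists were chosen with earlier results of these data known. Other software was Python 3.11.15 with numpy 2.4.6, matplotlib 3.10.9, scipy 1.17.1 and pandas 2.3.3.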

Additional observations from a re-analysis of the deposited data

How the results depend on the processing

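The plastid gene calls, 2 as reported, were 1 with 1 copy of the repeat (chosen after seeing the data, as were each division by the nuclear share and the block by description number), 9 with the block by description number and 0 when scaled to the compartment's own total. With 1 library left out they ran from 0 to 4, and the mitochondrial gene calls, 4 as reported, from 1 to 5. Organelle intron calls, 2 as reported, were 5 with a minimum mean of 1 intron and 10 gene counts (adding row I004 of nad7, trnV and ATMG01320:I001 of nad2). They were 14 with the median change removed, 17 without the gene offset and 1 to 3 with 1 library left out. Without the offset, libraries were scaled by their intron counts alone, and the median log2 change of all introns was -0.02. The calls with the median removed or without the offset are thus relative to all introns, most of them nuclear. They do not measure a fall in the level of organelle intron RNA. Any other cause of these differences was not tested. On the scale without the gene offset the ccmFC intron was reversed to -0.81, and the rps12 intron to -0.77 and -0.81 at its copies. These values are relative to all introns and are not changes in intron CPM. Organelle junction calls were 0 under every alternative run.

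The difference in intronic share (prmt5 minus WT) was -0.505 percentage points in the plastid as reported, -1.85 per base and -3.23 as a percent of gene counts; in the mitochondrion it was -1.73, -23.8 and -50.8. These alternatives are on other scales. With 1 library left out it ran from -1.39 to 0.0411 in the plastid and from -3.29 to -0.792 in the mitochondrion. The difference in share of gene counts ran from -0.0560 to 0.0449 and from -0.000410 to 0.00261, and that of the ratio to the nuclear share from -5.44 to -4.17 and from -7.22 to -6.18. Among single genes, introns and junctions, 1287 alternative values kept their side of the threshold, 48 lost a call, 34 gained one and 3 were reversed.

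Equal replicate numbers did not pair the libraries, with correlations of their deviations of -0.17, -0.17 and -0.11 over all genes and 0.14, -0.05 and -0.07 over organelle genes. Over all genes no library correlated best with its own number; over organelle genes replicate 1 did. With the replicate number as a block, plastid calls were 2, mitochondrial calls 3 (without ATMG00690, adjusted p 0.087) and intron calls 2, SIG1 (0.058), CSP41A (0.086) and THA8 (0.11) missed the threshold, and the exact sign-flip p was 1 for the plastid and 0.75 for the mitochondrial share of gene counts, where 0.25 is the smallest possible. The libraries with description numbers 8 apart had correlations of 0.20 (prmt5 9 and WT 1), 0.23 (11 and 3) and 0.22 (12 and 4), a hint from the data and not from the design. With these as blocks, mitochondrial calls were 3 and intron calls 3, all lowered.

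At this depth 60 of 146 mitochondrial genes and 0 mitochondrial junctions had enough counts for a test.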
